A study of Homo sapiens with 40 samples.

Results

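To ask which functions rise or fall in HEK293 cells when CNOT1 is depleted, the input RNA of the sucrose gradient experiment was compared between cells given CNOT1 siRNA and cells given control siRNA. The comparison comprised 8 of the 40 RNA-Seq libraries of the series, 4 titled as CNOT1 siRNA and 4 as control siRNA, and it was fitted alone, without the libraries of the gradient fractions. HEK293 is an established human embryonic kidney cell line. All 8 libraries came from transfected HEK293 cells lysed in a buffer with cycloheximide, which holds ribosomes on mRNA. Per the study's methods, 1 siRNA against CNOT1 was used, from another supplier than the control siRNA, so that the loss of CNOT1 and any other effect of that siRNA cannot be told apart. The input was an aliquot of the lysate loaded on the gradients, from which nuclei had been removed, and poly(A)-selected stranded libraries were made from it. Nothing in the labels says that replicates were separate cultures, so p-values measure the spread between these libraries.

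CNOT1 is the scaffold of the Ccr4-Not complex. The complex shortens the poly(A) tails of mRNAs, a step that opens the way to decapping and decay, and it also represses translation. It holds the deadenylases CNOT6 or CNOT6L and CNOT7 or CNOT8, and adapters such as the BTG and TOB proteins, Pumilio, tristetraprolin and the GW182 proteins of miRNA silencing bring it to particular mRNAs. Short-lived mRNAs, among them those of immediate early genes, are known for their fast deadenylation.

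Library totals ranged from 34.3 to 40.7 M counts for CNOT1 siRNA and from 35.8 to 37.7 M for control siRNA. Log2 CPM (counts scaled to the library total and TMM factor) correlated with r = 0.993 to 0.996 within a group and 0.978 to 0.984 between groups, and the first principal component, with 65.1% of the variance, separated the siRNAs. Of 11 genes known from HEK293 cells, 10 passed the count filter, 2 rose and 6 fell, NEFM, the medium neurofilament, at 4380 ± 156 CPM (SD, n = 4) in control libraries and 2696 ± 137 CPM with CNOT1 siRNA (log2 fold change -0.70, edgeR FDR 6.13e-08). Of 9 blood cell markers 2 passed and of 7 hepatocyte and keratinocyte markers 0 passed, with MS4A1 and TTR at 0 in all 8 libraries. Of 7 fibroblast markers 4 passed, and 2 were called higher and 2 lower.

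Of 15686 genes tested with edgeR's quasi-likelihood test, 4848 were called higher with CNOT1 siRNA (30.9%) and 4713 lower (30.0%) at a Benjamini-Hochberg FDR below 0.05. At least 1.5-fold changes were called for 1666 genes higher (10.6%) and 1701 lower (10.8%). These shares are the background against which each gene list is read. The median log2 fold change of all genes was -0.002 ± 0.013 (SD of the 4 CNOT1 siRNA libraries' medians, each against the control mean). Because values are scaled to the library total, a change in the amount of all mRNA would not be visible, and in bulk RNA fewer cells of a type and less RNA per cell cannot be told apart. The libraries were selected by the poly(A) tail, which the Ccr4-Not complex shortens. A change in the amount of an mRNA and a change in its capture through tail length therefore cannot be told apart. Log2 fold changes are given as CNOT1 siRNA minus control siRNA, and a gene is said to rise or fall, in these counts, only where it was called.

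CNOT1 itself (chromosome 16, 58553855 to 58663789, minus strand, GRCh37) was at 652, 679, 633 and 609.7 CPM in control libraries 1 to 4 and at 39.7, 35.4, 39.1 and 39.3 CPM with CNOT1 siRNA. The groups lay far apart, a 16.8-fold decrease (log2 -4.07, SE 0.06, FDR 2.49e-16). Among the 12 Ccr4-Not genes, 8 rose and 3 fell, and their median was 0.30 ± 0.04. The exonuclease genes split. CNOT6 was at 192, 184, 194 and 197 CPM in control libraries and at 114, 119, 119 and 107 CPM with CNOT1 siRNA (log2 -0.74, FDR 2.21e-08). Its paralogue CNOT6L went the other way, from 71.8, 70.0, 75.6 and 76.0 CPM to 122, 117, 134 and 115 CPM (log2 0.73, FDR 6.56e-08). All libraries of one siRNA were above or below all of the other for both genes. CNOT7 fell by 0.54 on the log2 scale, from 181 ± 12.8 to 124 ± 10.1 CPM, while its paralogue CNOT8 rose by 0.37, from 64.9 ± 1.56 to 84.0 ± 3.07 CPM (SD, n = 4). The other subunits moved less than CNOT6, CNOT6L and CNOT7. CNOT3 rose by 0.48, TNKS1BP1 by 0.46, CNOT2 by 0.34, CNOT4, a ubiquitin ligase, by 0.33, CNOT10 by 0.28 and RQCD1 (current symbol CNOT9) by 0.24. CNOT11 had overlapping groups and was not called (log2 0.08, FDR 0.179).

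**Figure D1:**
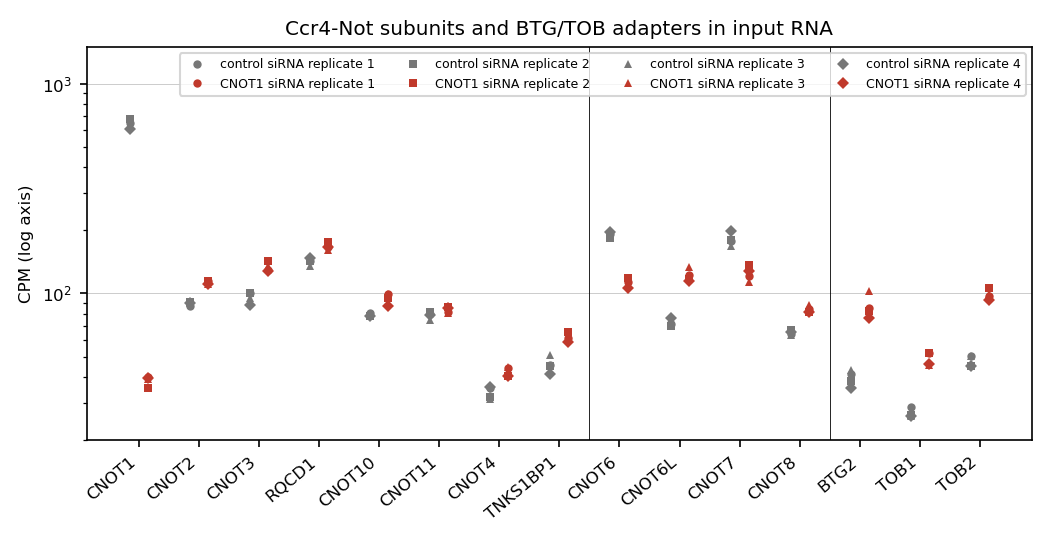
CPM on a log axis of the Ccr4-Not subunits, the 4 exonuclease genes and 3 BTG/TOB genes, 1 point per library, grey for control siRNA and red for CNOT1 siRNA, with a marker shape per replicate. CNOT1 lies at 610 to 679 CPM in the control libraries and at 35.4 to 39.7 CPM with CNOT1 siRNA, CNOT6 and CNOT7 lie lower and CNOT6L, CNOT8 and the BTG/TOB genes higher.

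All 5 BTG and TOB genes rose, with a median of 0.87 ± 0.08. These genes encode antiproliferative proteins that bind the Ccr4-Not exonucleases. BTG2 stood at 41.2, 38.2, 43.3 and 35.4 CPM in control libraries and at 84.8, 82.2, 103 and 76.4 CPM with CNOT1 siRNA (log2 1.13, SE 0.09, FDR 4.32e-08). TOB2 rose from 50.2, 45.2, 50.2 and 44.9 CPM to 97.5, 106, 99.8 and 92.7 CPM (log2 1.06, FDR 4.84e-09) and TOB1 from 28.7, 26.3, 25.9 and 26.0 to 52.0, 51.9, 45.4 and 46.2 CPM (log2 0.87, FDR 4.32e-08). No CNOT1 siRNA library of these 3 genes was as low as any control library. BTG3 and BTG1, named after their values were seen to complete the family, rose by 0.69 and 0.55.

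The remaining mRNA decay factors moved in both directions. Of 8 deadenylases outside Ccr4-Not, 2 rose and 4 fell. CCRN4L (current symbol NOCT), which encodes nocturnin, went from 21.9 ± 1.49 to 43.8 ± 2.80 CPM (log2 1.00, FDR 2.01e-08), PDE12, a mitochondrial poly(A) exonuclease, rose by 0.31 and PAN2, the catalytic subunit of the PAN2-PAN3 deadenylase, fell by 0.43. Of 17 RNA-binding adapters of the complex, 6 rose and 6 fell (PUM2 log2 0.43, CPEB4 0.38, CPEB2 -0.90). Decapping factors split evenly, with 8 of 18 higher and 8 lower, and DCP2, the decapping enzyme, fell from 207, 204, 212 and 212 CPM to 135, 128, 125 and 118 CPM (log2 -0.72, FDR 3.26e-08). LSM4 and LSM5, of the ring that binds deadenylated 3′ ends, fell by 0.76 and 0.47. In the Argonaute and GW182 list 2 of 7 rose and 4 fell, with TNRC6A up from 201, 198, 191 and 194 to 331, 313, 333 and 297 CPM (log2 0.70, FDR 3.96e-08) and AGO4 and TNRC6C down by 0.69 and 0.50. Nonsense-mediated decay factors (2 of 10 higher, 3 lower), the exosome (6 of 15 higher, 5 lower) and poly(A)-binding proteins with their partners (1 of 6 higher, 4 lower) had medians of -0.08 ± 0.06, 0.02 ± 0.02 and -0.19 ± 0.09. Without control replicate 1, control replicate 2 or CNOT1 siRNA replicate 3, 2 of the 6 poly(A)-binding genes were called lower. In these lists SMG1, a kinase of nonsense-mediated decay, fell by 0.45, UPF3B fell by 0.58 with overlapping groups and SMG8 rose by 0.30. EXOSC4 rose by 0.84, and EXOSC6 and TTC37 (SKIC3), a cytoplasmic cofactor of the exosome, fell by 0.57 and 0.50. PABPC1, the main cytoplasmic poly(A)-binding protein, went from 1163 ± 47.6 to 951 ± 49.9 CPM (log2 -0.29), PAIP2B fell by 0.29 and PAIP1 rose by 0.19.

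Among called genes that averaged 10 CPM or more and whose groups lay apart, FAM73A (MIGA1, mitoguardin, a mitochondrial outer membrane protein) fell most after CNOT1. It was at 59.7, 55.9, 60.3 and 63.1 CPM in control libraries and at 15.3, 14.2, 15.8 and 15.4 CPM with CNOT1 siRNA (log2 -1.97, SE 0.06, FDR 1.25e-11). IGFBP5, a secreted binding protein of insulin-like growth factors, went from 25.4, 29.3, 26.9 and 22.3 to 7.75, 9.06, 5.73 and 6.85 CPM (log2 -1.82, FDR 1.35e-08). C9orf41 (CARNMT1, a carnosine methyltransferase) went from 84.5, 88.4, 88.8 and 92.8 to 26.4, 28.9, 27.0 and 24.1 CPM (log2 -1.74, FDR 3.49e-11). These 3 genes held narrow ranges in each group, with a gap of more than 2-fold between them. KLHL2, a substrate adapter of cullin-3 ubiquitin ligases, followed at log2 -1.71, then the homeobox gene HOXB3 at -1.62, the stathmin STMN3 at -1.60 and ZC3HAV1L at -1.56. PMAIP1, which encodes the proapoptotic BH3-only protein NOXA, fell from 72.4, 74.2, 85.6 and 74.97 CPM to 31.5, 27.1, 32.8 and 24.8 CPM (log2 -1.40, FDR 6.71e-09). UHMK1, a kinase that phosphorylates splicing factors, was the most abundant of the rest, at 241, 239.7, 238 and 249 CPM in control libraries and 93.7, 94.7, 92.5 and 87.7 CPM with CNOT1 siRNA (log2 -1.39, FDR 3.49e-11). HOXB6 (-1.42) and the kinase gene MAP3K13 (-1.38) completed the 12 largest decreases.

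EGR1 (chromosome 5, 137801168 to 137804992, plus strand), an immediate early zinc finger transcription factor, rose most by the same criteria, and its libraries spread widely. It was at 5.06, 3.97, 7.64 and 4.55 CPM in control libraries 1 to 4 and at 25.3, 12.2, 107 and 20.4 CPM in CNOT1 siRNA libraries 1 to 4 (log2 2.95, SE 0.53, FDR 0.000176). Replicate 3 was the highest library of both siRNAs, and without CNOT1 siRNA replicate 3 the log2 fold change was 1.85. PVRL4 (NECTIN4), an adhesion receptor, rose from 5.58, 6.94, 5.32 and 5.95 to 24.4, 23.2, 42.1 and 27.2 CPM (log2 2.30, FDR 2.67e-08). DDN, which encodes dendrin, rose from 5.70, 7.08, 5.02 and 5.84 to 25.9, 32.2, 25.4 and 24.7 CPM (log2 2.19, FDR 2.46e-09). DHRS2, a mitochondrial dehydrogenase, rose from 7.91, 7.68, 11.0 and 9.71 to 26.7, 18.6, 47.7 and 37.8 CPM (log2 1.85, FDR 3.07e-06). The lowest CNOT1 siRNA library of each of these genes lay above the highest control library. KCNJ8, a potassium channel subunit, rose with little spread, from 15.2, 14.9, 12.4 and 15.8 to 40.6, 38.7, 37.6 and 39.9 CPM (log2 1.43, FDR 2.46e-09). FAM83G (1.69), ZNF804A (1.39), SEMA4C, a semaphorin (1.39), RAP1GAP2, a GTPase-activating protein for Rap1 (1.38), TRIB3, a pseudokinase induced in stress (1.36), and the Hsp70 genes HSPA1A and HSPA1B, described with the chaperones, were the other large increases.

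**Figure D2:**
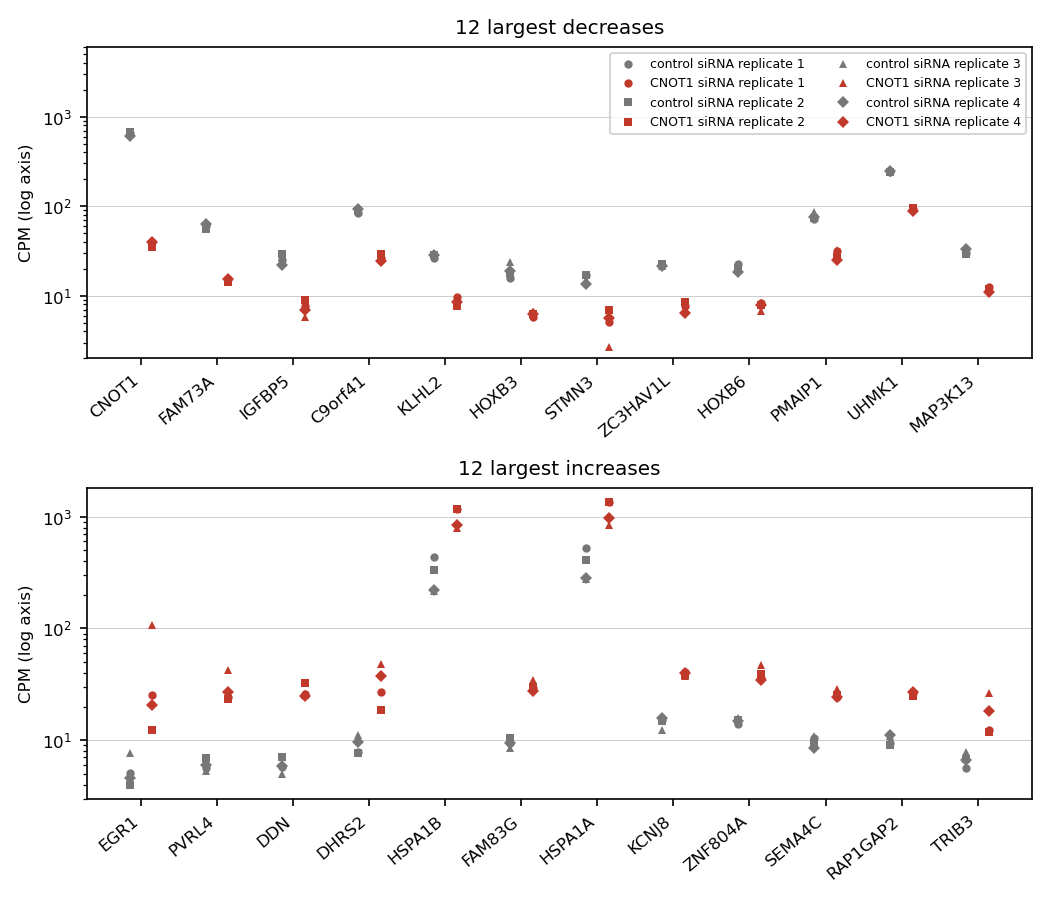
CPM on a log axis of the 12 genes with the largest decrease (top) and the 12 with the largest increase (bottom) among called genes of at least 10 CPM without overlap, 1 point per library, grey for control and red for CNOT1 siRNA. Replicates lie close together for most genes, and EGR1 spreads from 12.2 to 107 CPM over the CNOT1 siRNA libraries.

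Cytosolic ribosomal protein mRNAs fell together. Of 84 tested, 80 fell and 1 rose, against 30.0% lower and 30.9% higher over all genes, and the median was -0.61 ± 0.07. The exception, RPL7L1, named after its value was seen, is a paralogue of RPL7. RPSA was at 1275, 1165, 1163 and 1230 CPM in control libraries and at 684, 651, 572 and 664 CPM with CNOT1 siRNA (log2 -0.91, SE 0.06, FDR 1.68e-08). RPL22 fell from 717, 671, 720.1 and 733 to 411, 375, 380.3 and 379.5 CPM (log2 -0.88, FDR 6.71e-09) and RPL37A from 1308, 1131, 1198 and 1322 to 776, 638, 678 and 758 CPM (log2 -0.80, FDR 1.75e-07). All CNOT1 siRNA libraries of these 3 genes lay below all control libraries. Ribosomal protein genes have many processed copies in the genome, so reads shared with a copy may be missing from these counts.

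The mRNAs of ribosomal proteins begin with a 5′ terminal oligopyrimidine (TOP) tract, through which mTOR signalling is known to control their translation. The following starts, from RefSeq on GRCh38.p14, run from 10 bases before to 20 bases after the annotated start site on the transcribed strand. They are shown to compare 3 ribosomal protein genes with a snoRNA host (ZFAS1), an ATP synthase subunit (ATP5L) and 2 respiratory chain genes that also fell, and capitals mark the uninterrupted pyrimidine tract where the start base is C.
RPSA, chr3:39406710-39406739: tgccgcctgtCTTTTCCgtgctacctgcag
RPL22, chr1:6199576-6199605, minus strand: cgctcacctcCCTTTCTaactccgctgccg
RPL37A, chr2:216498834-216498863: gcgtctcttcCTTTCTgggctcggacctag
ZFAS1, chr20:49278632-49278661: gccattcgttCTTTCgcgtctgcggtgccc
ATP5L, chr11:118401596-118401625: tgcagcgggtCCTTCCggcgggtgacattc
NDUFA1, chrX:119871822-119871851: cggccgcggggcttgctgggaagagaggcg
CYCS, chr7:25125241-25125270, minus strand: ccttggacttagagagtggggacgtccggc
NDUFA1 and CYCS have no tract at this start. A start with C followed by at least 4 pyrimidines stood at 48 of 68 ribosomal protein genes with a start in the table (70.6%), at 3 of 10 snoRNA hosts (30%), at 7 of 31 genes of complexes II to V (22.6%), at 1 of 32 genes of complex I (3.12%) and at 7.32% of all 10972 genes matched. Where a gene had several starts, any of them counted. The median log2 fold change was -0.63 for the 48 ribosomal protein genes with the tract and -0.50 for the 20 without. Outside the ribosomal proteins it was 0.03 for 755 genes with the tract and 0.05 for 10149 without.

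Nuclear-encoded respiratory chain mRNAs also fell. Of 40 genes of complexes II to V, 36 fell and 2 rose, with a median of -0.60 ± 0.10. Of 38 genes of complex I, 28 fell and 0 rose (-0.38 ± 0.08). CYCS, cytochrome c, was at 378, 378, 341 and 394 CPM in control libraries and at 189.7, 167, 155 and 165 CPM with CNOT1 siRNA (log2 -1.14, SE 0.07, FDR 4.84e-09). ATP5L (ATP5MG), a subunit of ATP synthase, fell from 171, 163, 155 and 156 to 93.7, 85.7, 78.0 and 85.3 CPM (log2 -0.91), and COX6C, of cytochrome c oxidase, from 127, 116, 116 and 127 to 80.7, 51.5, 67.3 and 70.8 CPM (log2 -0.85). In complex I, NDUFA1, NDUFB3 and NDUFB1 fell by 0.84, 0.80 and 0.80. Groups did not overlap for these 6 genes, whose coding regions span 177 to 318 nt. Other short genes fell often too. Among genes with coding regions of 114 to 564 nt outside the ribosomal and respiratory chain genes, 50.5% fell and 14.9% rose (median -0.23). Mitochondrial ribosomal proteins did not move as a body, with 27 of 75 higher and 17 lower and a median of 0.06 ± 0.06. Among them MRPS2 and MRPS12 rose by 0.67 and 0.53, and MRPL23 fell by 0.54. Mitochondrial import genes were divided (8 of 20 higher, 8 lower). The receptor TOMM20 fell from 536, 592, 566 and 632 to 311, 334, 283 and 354 CPM (log2 -0.86), TOMM7 fell by 0.86 and TIMM9 rose by 0.58. Without control replicate 3, CNOT1 siRNA replicate 1 or CNOT1 siRNA replicate 2, 5 import genes were called higher. The genes of the mitochondrial genome took only 0.00366 to 0.00472% of counts in control libraries and 0.00246 to 0.00372% with CNOT1 siRNA, and 8 of 12 tested were called lower (-0.53 ± 0.27). The highest of them, MT-ND4, held 9.19 ± 1.54 and 6.44 ± 0.783 CPM (SD, n = 4). Whether such low counts stand for the level of mitochondrial transcripts was not tested. MT-ND5 lost its call without control replicate 2 or 4 or CNOT1 siRNA replicate 1, 2 or 3. MT-ND3 lost its call without control replicate 1 or 4 or CNOT1 siRNA replicate 2. In the other direction, MT-CO2 was newly called without CNOT1 siRNA replicate 1, and MT-ATP6 without control replicate 3 or CNOT1 siRNA replicate 4.

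**Figure D3:**
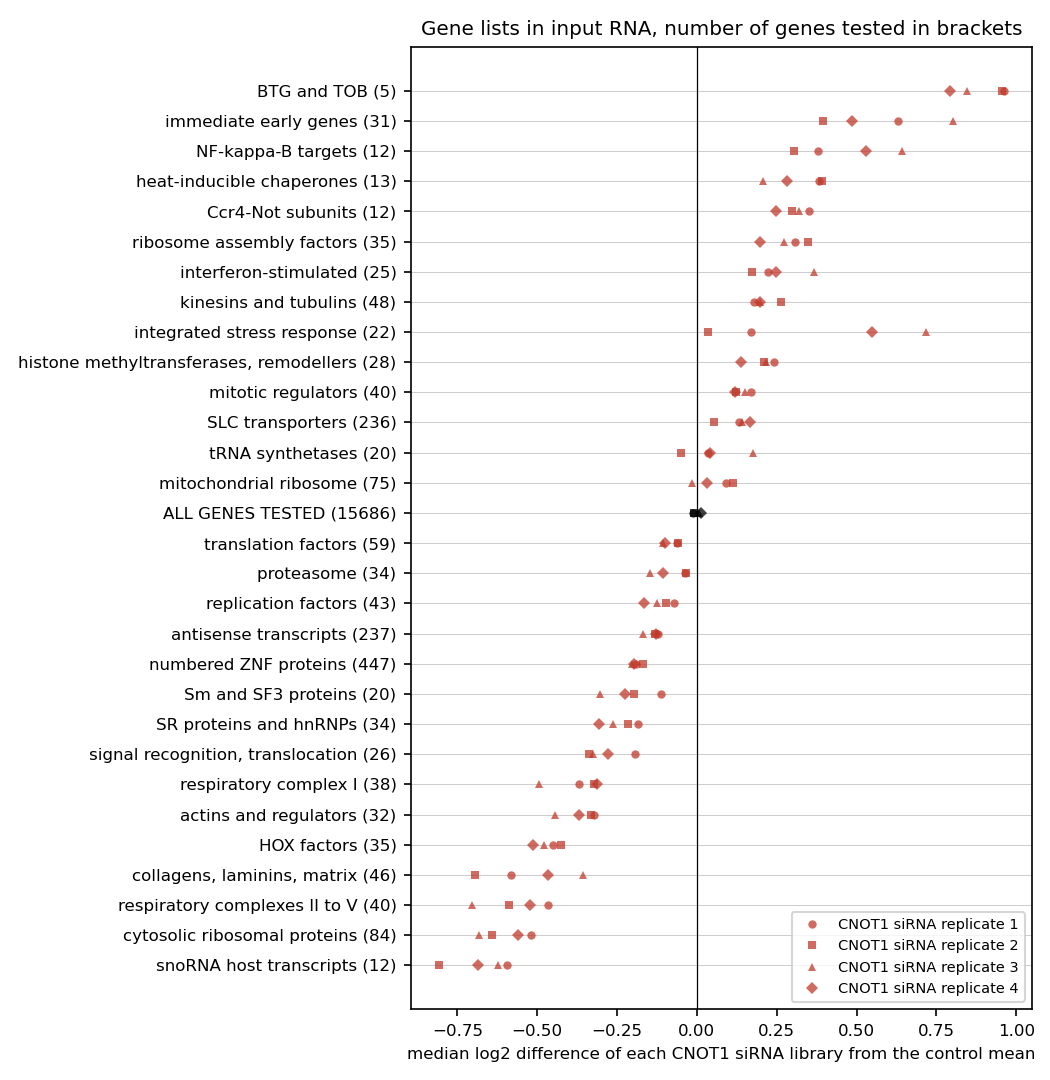
Median log2 difference of each CNOT1 siRNA library from the mean of the control libraries (x axis) for 29 gene lists and for all genes tested (black), with the number of genes tested in brackets and a marker shape per replicate. Ribosomal proteins, snoRNA hosts and complexes II to V lie left of 0 and BTG and TOB right of it in all 4 libraries, and the integrated stress response list spreads from 0.04 to 0.72.

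Ribosome assembly went the other way from the ribosomal proteins. Of 35 nucleolar assembly factors, 24 rose and 5 fell, with a median of 0.28 ± 0.06. POLR1B, a large subunit of RNA polymerase I, rose from 181, 171, 156 and 163 CPM to 319.5, 304, 307 and 272 CPM (log2 0.84, FDR 3.32e-08). NOP2, an rRNA methyltransferase, rose from 198, 202, 169.9 and 188 to 331, 325, 286 and 289 CPM (log2 0.70) and RRP12 by 0.71. The 5 that fell, named after their values were seen, were NHP2 (-0.56), NOP10 (-0.39), NIP7 (-0.39), FBL (-0.25) and NOP56 (-0.25), of which NHP2, NOP10, FBL and NOP56 are core proteins of snoRNA particles. Translation factors fell more often than they rose (23 lower, 12 higher of 59, median -0.09 ± 0.02). EIF4EBP2, a repressor of cap-dependent initiation, fell from 335, 344, 305 and 335 to 145, 175, 117 and 145 CPM (log2 -1.18, FDR 4.32e-08), EIF1AX, of start site scanning, fell by 0.82 and EIF4E3 by 0.81. Of 20 tRNA synthetases 5 rose and 4 fell, below the background in both directions, with FARSA, RARS and HARS higher by 0.51, 0.29 and 0.28. Non-coding host transcripts of snoRNAs fell, 10 of 12 with 0 higher (median -0.73 ± 0.09). ZFAS1 went from 56.5, 48.2, 43.8 and 46.8 to 30.9, 17.5, 27.6 and 21.5 CPM (log2 -1.003, FDR 9.75e-06), SNHG6 fell by 0.95 and EPB41L4A-AS1 by 0.85. Of 52 transcripts annotated as snoRNA, 26 fell and 0 rose. The libraries were poly(A)-selected, and whether these counts are reads of snoRNAs or of their host transcripts was not tested.

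Splicing factor mRNAs fell. Of 34 SR protein and hnRNP genes, 24 fell and 2 rose (-0.25 ± 0.05), and HNRNPA1 went from 2282, 2255, 2299 and 2346 CPM to 1608, 1654, 1530 and 1521 CPM (log2 -0.54, FDR 3.08e-07). HNRNPA3 and SRSF10 fell by 0.52 and 0.52. Of 20 Sm and SF3 genes 10 fell and 2 rose (-0.22 ± 0.08), with SNRPD2, SNRPE and SF3B5 lower by 0.77, 0.60 and 0.44. The largest family counted, the numbered ZNF zinc finger genes, fell in 213 and rose in 81 of 447 cases, a share of 47.7% lower against 30.0% over all genes (median -0.19 ± 0.02). Of those with a mean of at least 10 CPM, ZNF440 (-1.24) and ZNF333 (-1.18) fell most and ZNF804A rose most. HOX genes fell in 24 of 35 cases and rose in 3 (-0.45 ± 0.04). HOXB3 was at 15.7, 17.9, 23.8 and 18.7 CPM in control libraries and at 5.74, 6.21, 6.60 and 6.22 CPM with CNOT1 siRNA, and HOXB9 fell from 51.5 ± 4.91 to 23.2 ± 1.51 CPM (log2 -1.15, FDR 1.31e-08). Of the 3 HOX genes that rose, HOXD1 and HOXD8, named after their values were seen, rose by 2.14 and, with overlapping groups, 0.43. HOXD1 averaged below 10 CPM. Histone methyltransferases and chromatin remodellers of high molecular mass rose in 15 of 28 and fell in 2 (0.21 ± 0.05). KMT2B went from 54.8, 54.7, 54.7 and 42.3 to 87.1, 91.6, 94.7 and 86.5 CPM (log2 0.80, FDR 3.36e-07), and the remodellers CHD8 and CHD7 rose by 0.60 and 0.59. KMT2B, CHD8 and CHD7 have coding regions of 7746 to 8994 nt. Of all protein-coding genes with coding regions of 3600 nt and more, 43.7% rose, with a median of 0.15.

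Matrix and actin genes fell. Of 46 collagens, laminins and other matrix genes, 29 fell and 3 rose (-0.53 ± 0.15). LAMA5, a laminin chain, went from 29.7, 27.9, 41.2 and 22.4 CPM to 10.4, 12.3, 11.0 and 13.7 CPM (log2 -1.35, FDR 1.16e-06), COL2A1 from 30.0, 30.1, 31.3 and 29.1 to 11.1, 13, 8.88 and 15.2 CPM (log2 -1.32) and FN1, fibronectin, from 28.1, 30.2, 26.9 and 25.8 to 14.3, 12.7, 11.2 and 13.02 CPM (log2 -1.11). Actins and their regulators fell in 20 of 32 and rose in 2 (-0.41 ± 0.06). ARPC1A, of the Arp2/3 complex, fell from 149, 148, 140.3 and 146 to 73.5, 77.7, 65.2 and 77.7 CPM (log2 -0.99, FDR 7.72e-09), and MYL12B, a myosin light chain, and CFL1, cofilin, by 0.80 and 0.76. Kinesins and tubulins moved the other way, with 27 of 48 higher and 6 lower (0.25 ± 0.04). KIF21A rose from 81.7, 82.6, 78.8 and 86.2 to 143, 136, 145 and 128 CPM (log2 0.75), and KIF23 and KIF16B by 0.63 and 0.57. Adhesion genes had 10 of 32 higher and 11 lower, with ITGA5 and ITGA6 up by 0.78 and 0.52. In that list 7 genes were called lower without control replicate 1, control replicate 3 or CNOT1 siRNA replicate 2. RAB and SNARE genes had 23 of 77 higher and 30 lower (RAB31 -0.95, VAMP4 -0.89, RAB3D 0.72). SLC transporters rose in 95 of 236 (40.3%) and fell in 54 (22.9%), with a median of 0.13 ± 0.05. SLC29A3, a lysosomal nucleoside transporter, and SLC2A1, the glucose transporter GLUT1, rose by 1.06 and 0.89, and SLC25A23 fell by 0.96.

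Immediate early genes, which serum and growth factors induce within minutes, rose in 20 and fell in 4 of 31 cases, with a median of 0.63 ± 0.18. The promoter of EGR1 holds 2 CArG boxes, the sites through which serum response factor acts, and EGR2 holds 1 in the RefSeq window of 250 bases before to 50 after the start (GRCh38.p14), shown here with the box in capitals.
EGR1, chr5:138465366-138465391: cggtcctgCCATATTAGGgcttcctg
EGR1, chr5:138465388-138465413: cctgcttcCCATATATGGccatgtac
EGR2, chr10:62816420-62816445, minus strand: tcctcagtCCATATATGGgcagcgac
A CArG box stood in the window of 3 of 21 immediate early genes matched (14.3%) and of 1.6% of all genes matched. EGR2 rose from 0.698, 0.914, 0.756 and 1.10 CPM to 1.45, 1.24, 2.82 and 1.52 CPM (log2 1.02, FDR 0.00266). SRF, the factor's own gene and the other match, was not called (log2 -0.10, FDR 0.19).

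Among the low genes of the list, FOS was at 1.40, 1.54, 2.00 and 1.89 CPM in control libraries and at 5.45, 3.12, 15.7 and 3.64 CPM with CNOT1 siRNA (log2 2.02, SE 0.42, FDR 0.00063). FOSB went from 1.83, 1.40, 2.62 and 1.78 to 5.98, 2.92, 14.3 and 4.01 CPM (log2 1.82, FDR 0.000818), and ARC from 2.21, 1.86, 2.81 and 2.14 to 12.5, 7.28, 18.9 and 7.79 CPM (log2 2.36, FDR 1.76e-06). As for EGR1, replicate 3 was the highest CNOT1 siRNA library of all 3 genes, and it was the highest of 20 of the 31 immediate early genes. Without it FOS rose by 1.23 and FOSB by 1.15. IER3 (1.47), JUNB (1.28), DUSP5 (0.83), JUND (0.73), NR4A1 (0.66), SPRY2 (0.63) and KLF4 (0.53) rose without overlap. JUN rose from 199.9, 167, 173 and 119.9 CPM to 399, 298, 370.1 and 199.9 CPM (log2 0.94, FDR 0.000209), where the CNOT1 siRNA library of replicate 4 equalled the highest control library but was above its own control. MYC, abundant in these cells, rose from 1082, 1041, 1103 and 926 to 1894, 1686, 1759 and 1468 CPM (log2 0.71, SE 0.08, FDR 9.85e-07). Not every gene of the list rose. DUSP4, a MAP kinase phosphatase, fell from 20.6, 14.9, 20.9 and 19.0 to 10.4, 7.63, 10.1 and 9.83 CPM (log2 -0.99, FDR 2.59e-06), and KLF10, KLF6 and NR4A3 fell by 0.57, 0.55 and 0.47. EGR3 (log2 0.91, FDR 0.0238) and SPRY4 (1.03, FDR 0.0218) were called with overlapping groups. Both calls were lost without CNOT1 siRNA replicate 3, at log2 0.37 for EGR3 (FDR 0.148) and 0.71 for SPRY4 (FDR 0.0933, edgeR). IER2 (FDR 0.0662) and DUSP1 (FDR 0.0514) missed the threshold and were called with replicate number as a block, at log2 0.31 and 0.34.

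Heat shock protein genes and their co-chaperones rose in 7 and fell in 0 of 13 cases (0.31 ± 0.09). HSPA1A (chromosome 6, 31783320 to 31785723, plus strand) was at 523, 414, 276 and 284 CPM in control libraries and at 1353, 1344, 837 and 976 CPM with CNOT1 siRNA (log2 1.59, SE 0.18, FDR 2.57e-06), and HSPA1B went from 432, 330, 217 and 219 to 1178, 1171, 794 and 842 CPM (log2 1.73). Control libraries spread almost 2-fold, and replicates 1 and 2 were the higher ones for both siRNAs. The coding sequences of these Hsp70 genes are nearly identical, so the division of reads between them is uncertain. DNAJB1, their Hsp40 partner, rose from 75.8, 68.8, 64.3 and 66.5 to 125, 137, 125 and 132 CPM (log2 0.91, FDR 1.31e-08). HSPH1 and BAG3, which act on Hsp70 and were named after their values were seen, rose by 0.72 and 0.62. A heat shock element, GAANNTTCNNGAA or TTCNNGAANNTTC on either strand, stood in the RefSeq window of 5 of 13 heat shock genes (38.5%) and of 0.51% of all genes matched. The 5 genes (DNAJA1, HSP90AA1, HSP90AB1, HSPA8 and HSPD1) had a median log2 fold change of 0.05. The constitutive chaperonin CCT had 3 of 8 subunits higher (CCT2 0.17, CCT6A 0.17, CCT4 0.16) and 1 lower, and CCT2 was not called without control replicate 3 or CNOT1 siRNA replicate 1. Targets of ATF4 in the integrated stress response rose in 11 of 22 and fell in 2. Their median was 0.25, with an SD of 0.32 over libraries that was larger than the median itself. CNOT1 siRNA replicate 3 was the highest library of 18 of these 22 genes and replicate 4 of the other 4, and the list's medians were 0.17, 0.04, 0.72 and 0.55 in replicates 1 to 4. Without CNOT1 siRNA replicate 3, 4 ATF4 targets were called lower and 10 higher. TRIB3 went from 5.61, 6.85, 7.88 and 6.58 to 12.2, 11.8, 26.7 and 18.2 CPM, SESN2 from 46.5, 49.5, 61.9 and 52.5 to 77.3, 81.9, 120.1 and 101 CPM (log2 0.85, FDR 1.4e-05), and DDIT4 from 16.7, 18.2, 22.8 and 16.0 to 24.7, 24.7, 49.5 and 31.5 CPM (log2 0.82, FDR 0.000986). For all 3 genes every CNOT1 siRNA library was above every control library. Endoplasmic reticulum chaperones had 7 of 17 higher and 6 lower around a median of 0.00 ± 0.05, with DNAJB9 (1.11), XBP1 (0.67) and HERPUD1 (0.66) higher.

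**Figure D4:**
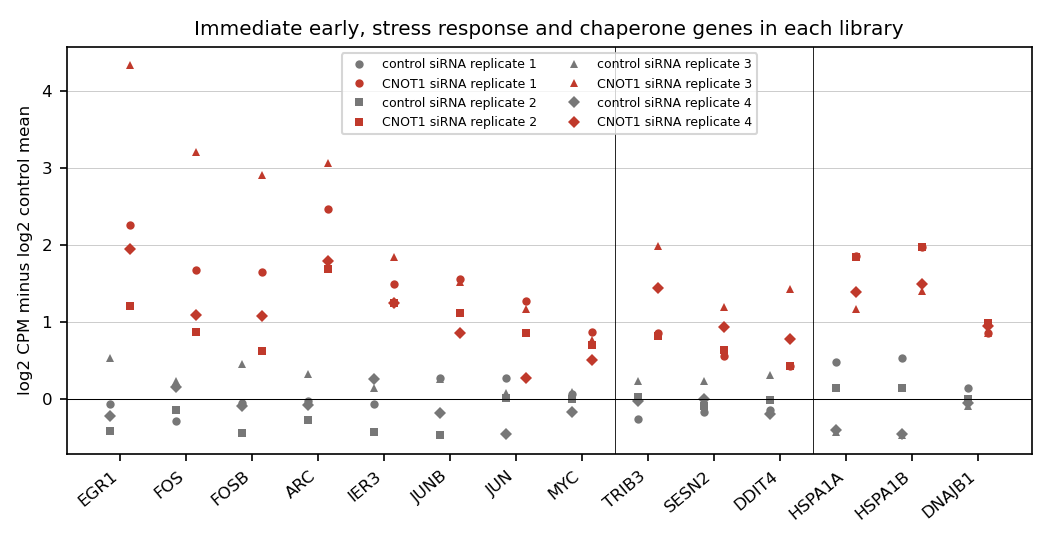
Log2 CPM of each library minus the log2 of the control mean (y axis) for 8 immediate early genes, 3 targets of ATF4 and 3 chaperone genes, grey for control and red for CNOT1 siRNA, with a marker shape per replicate. CNOT1 siRNA replicate 3 (triangles) is the highest point of EGR1, FOS, FOSB, ARC, TRIB3, SESN2 and DDIT4, and for HSPA1A and HSPA1B it is the lowest of the 4 CNOT1 siRNA libraries.

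The targets of p53 split, with 9 of 24 higher and 11 lower (-0.09 ± 0.09). TP53INP1 fell from 18.3 ± 0.725 to 7.42 ± 0.995 CPM (log2 -1.30, FDR 2.63e-08), as did PMAIP1, while BTG2 rose. Of 25 genes of the BCL2 and caspase families, 11 rose and 6 fell. BMF, like PMAIP1 a BH3-only gene, fell from 16.6, 16.4, 16.7 and 18.4 to 8.09, 7.60, 7.17 and 8.52 CPM (log2 -1.12, FDR 3.31e-08), and BCL2L13 rose by 0.61. Targets of NF-kappa-B rose in 7 of 12 and fell in 2 (0.42 ± 0.15). NFKB1 rose from 62.1, 60.1, 52.3 and 57.3 to 105, 101, 99.0 and 88.7 CPM (log2 0.77), NFKB2 rose by 0.50 with overlapping groups, and SOD2, the mitochondrial superoxide dismutase, fell from 299, 312, 315 and 331 to 168, 171, 162 and 168 CPM (log2 -0.91, FDR 3.18e-09). Interferon-stimulated genes had 9 of 25 higher, a share of 36% near the 30.9% of all genes, and 2 lower, with IFIT5 and USP18 up by 0.47 and 0.36 and EIF2AK2, the kinase PKR, down by 0.35. Feedback targets of NOTCH, WNT and TGF-beta went both ways (9 of 23 higher, 7 lower), NRARP from 179.7 ± 15.2 to 93.7 ± 10.48 CPM (log2 -0.94), HEYL up by 0.93 and ZNRF3 up by 0.81.

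Metabolic lists held changes in both directions. In cholesterol synthesis 11 of 24 fell and 8 rose. HMGCS1, which makes the precursor of mevalonate, fell from 484, 496, 574 and 518 CPM to 236, 246, 239 and 251 CPM (log2 -1.09, FDR 2.47e-09), and SREBF2, the transcription factor of the pathway, and IDI1 fell by 0.70 and 0.64. In glycolysis 10 of 21 fell and 6 rose, and the largest changes were increases, of HK2, a hexokinase, from 136, 128, 116 and 113 to 262, 245, 254 and 214 CPM (log2 0.98, FDR 3.23e-08), SLC2A1 and ENO2 (0.85). Of 3 metallothioneins tested 1 was called lower, MT1X (named after its value was seen, log2 -0.33), and the call was lost without control replicate 1. Genes of the secretory pathway fell in 16 of 26 and rose in 3 (-0.32 ± 0.07), SSR1 from 214, 204, 216 and 229.8 to 118, 109, 124 and 118 CPM (log2 -0.88) and the signal recognition particle genes SRP14 and SRP9 by 0.79 and 0.66. Lysosomal genes had 8 of 25 higher and 7 lower, with NPC2, TPP1 and HEXA lower by 0.82, 0.81 and 0.62. Autophagy genes had 5 of 21 higher and 6 lower (ATG16L1 0.54, ATG12 -0.57, GABARAPL1 -0.54 with overlapping groups). Proteasome subunits had 5 of 34 higher and 14 lower (-0.10 ± 0.05), with PSMD12 up by 0.45 and PSMD10 and PSMB2 down by 0.62 and 0.47. The count of higher proteasome genes was 2 or 3 without control replicate 1 or 3 or CNOT1 siRNA replicate 1, 2 or 3, and 8 with replicate number as a block.

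In the cell cycle, mitotic regulators rose in 19 and fell in 7 of 40 cases (0.13 ± 0.02). CENPA, the centromeric histone H3 variant, rose by 0.68, the cytokinesis motor gene KIF23 from 161, 165, 156 and 165 to 254, 246, 261 and 237 CPM (log2 0.63) and the kinase AURKA by 0.48. Replication factors fell in 21 and rose in 10 of 43 cases (-0.13 ± 0.04), with ORC6 and TYMS, thymidylate synthase, down by 0.59 and 0.58 and CDT1, a licensing factor, up by 0.63. Of 15 cyclins and inhibitors of G1, 4 rose and 5 fell (CCNE1 0.62, CDKN1B 0.52, CCND2 -0.63). Of 18 replication-dependent histone genes, whose mRNAs lack a poly(A) tail, 4 rose and 0 fell. The share that rose, 22.2%, was below the 30.9% of all genes. In these poly(A)-selected libraries the list took at most 0.0112% of counts. Its medians in the CNOT1 siRNA libraries ran from -0.18 to 0.27. Without control replicate 2 or CNOT1 siRNA replicate 3, 2 of these genes were called higher. Oncofetal mRNAs known as targets of the miRNA let-7 rose in 6 and fell in 4 of 12 cases (0.10 ± 0.06). TRIM71, a let-7 target, rose from 20.9, 25.8, 18.2 and 19.5 CPM to 37.7, 40.3, 38.3 and 34.4 CPM (log2 0.83, FDR 1.7e-06), E2F5 by 0.83 and ARID3B by 0.54.

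Non-coding transcripts fell more often than they rose. Of 496 genes annotated as lncRNA 180 fell and 57 rose, with a median of -0.26, and of 124 processed pseudogenes 54 fell and 7 rose. Over all genes 30.0% fell and 30.9% rose. In both groups the share that rose lay further from that background than the share that fell. Reads of the parent genes may be among the pseudogene counts, which was not tested. Antisense transcripts fell in 70 and rose in 35 of 237 cases (-0.15 ± 0.02), and LINC transcripts in 32 and 8 of 89 (-0.26, with medians of -0.25 to -0.13 in single CNOT1 siRNA libraries). The share of antisense transcripts that fell, 29.5%, was near the 30.0% of all genes, and 14.8% rose against 30.9%. For LINC transcripts 36.0% fell and 8.99% rose. HNRNPU-AS1 fell from 56.4, 57.2, 62.3 and 62.2 CPM to 27.4, 24.8, 29.1 and 30.1 CPM (log2 -1.10), C17orf76-AS1 (SNHG29) by 0.96 and OIP5-AS1 by 0.93. The option for strand in the counting is not given in the sources used here, so reads of such a transcript and of the gene on the other strand may not have been told apart. LINC00969, LINC00338 (SNHG20) and LINC00662 fell by 0.77, 0.51 and 0.50. All 3 lncRNAs known to stay in the nucleus that were tested fell. NEAT1, the scaffold of paraspeckles, went from 199.5, 208, 176 and 201 to 155, 142, 145 and 139 CPM (log2 -0.43, FDR 1.4e-05), MALAT1 from 40.6, 44.6, 44.8 and 43.2 to 34.4, 27.5, 31.7 and 31.6 CPM (log2 -0.47) and KCNQ1OT1 fell by 0.40 with overlapping groups. Without the filter on low counts 306 LINC transcripts had a median of 0.01, so that the direction of their median held only for those that passed it. These lysates had been cleared of nuclei, and whether the clearance differed between siRNAs was not tested.

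Genes that fell had shorter coding regions. Among 12960 protein-coding genes with an annotated transcript (GENCODE release 44 on GRCh37), the median coding length was 1635 nt in genes called higher, 1440 nt in genes not called and 1167 nt in genes called lower. With genes in 10 bins of equal number by coding length, 54.1% of the bin with the shortest, 78 to 564 nt, fell and 13.7% rose. In the bin with the longest, 3600 nt and more, 20.2% fell and 43.7% rose. The ribosomal and respiratory chain genes made up part of the first bin, and without them its median log2 fold change was -0.23 in place of -0.27, against -0.62 for the 56 ribosomal protein genes in it. Spearman's rho across genes, which are not independent replicates, was 0.20 between coding length and log2 fold change. Single libraries deviated from their group mean with rho between -0.14 and 0.25 to coding length, so that the relation is no larger than that of 1 library within a group.

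**Figure D5:**
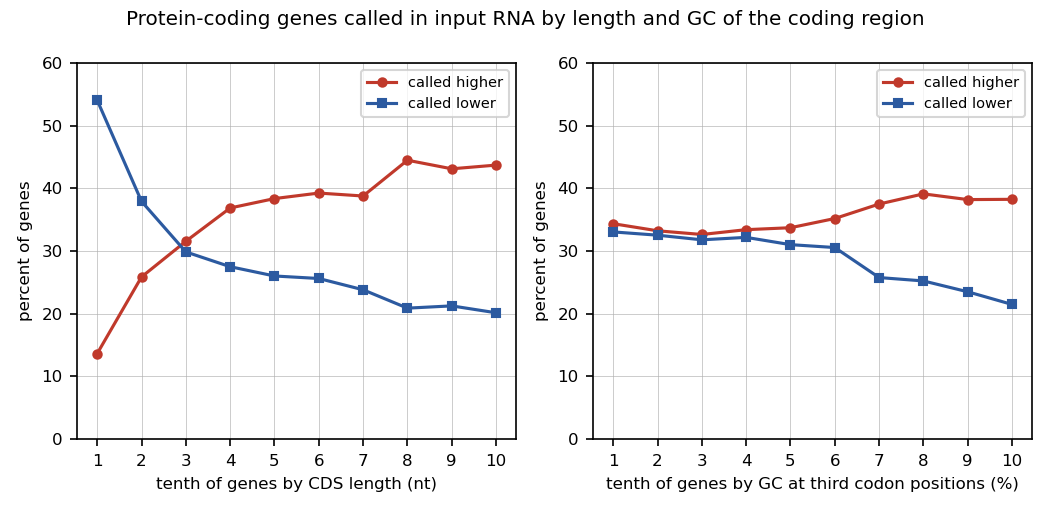
Percent of protein-coding genes called higher (red) and lower (blue) with CNOT1 siRNA in 10 bins of genes by coding length (left) and by GC content at the third codon position (right). The share called lower falls from 54.1 to 20.2% with coding length and from 33.1 to 21.5% with GC content.

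GC content at the third codon position (GC3) had a median of 60.7% in genes called higher, 60.4% in genes not called and 55.3% in genes called lower. Its rho with log2 fold change was 0.10, and single libraries deviated with rho between -0.39 and 0.27 to GC3, a wider range. With both features split at their medians, 43.8% of genes of long coding region and high GC3 rose and 19.3% fell, against 25.2% and 40.8% of genes of short coding region and low GC3. The length of the 3′UTR had rho = -0.01. The Pumilio motif TGTANATA, searched on the mRNA strand, stood in the 3′UTR of 34.9% of genes called higher, 29.3% of genes not called and 28.7% of genes called lower. The AU-rich nonamer TTATTTATT stood in 10.6%, 9.59% and 9.14%. Longer 3′UTRs hold more matches, and the median 3′UTR was 1400, 1296 and 1488 nt in these groups. A match describes letters and not binding.

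The same genes were looked up in the other libraries. Subpolysomal RNA (fractions 1 to 5 of the gradients, n = 4 for each siRNA) came from the same lysates as the input. Its values stand beside those of the input and not as independent support. They are scaled within the fraction, so a change in amount and a shift between fractions cannot be told apart. CNOT1 itself had a log2 fold change of -1.76 in subpolysomal RNA beside -4.07 in the input. Ribosomal protein genes had a median of -0.96 ± 0.05 there (SD, n = 4) beside -0.61 in the input, and snoRNA hosts -0.70 ± 0.21 beside -0.73. Complexes II to V, in contrast, had a median of -0.04 ± 0.10 and complex I 0.01 ± 0.13 in subpolysomal RNA, beside -0.60 and -0.38 in the input. Actin genes were at -0.01 ± 0.10 beside -0.41, and ribosome assembly factors at 0.01 ± 0.06 beside 0.28. The BTG and TOB genes had library medians of 0.20 to 0.38 and a median fitted value of 0.44 beside 0.87, with BTG2 at 0.05 and TOB2 at 0.45. HOX genes stayed at -0.50 ± 0.10 and the zinc fingers at -0.32 ± 0.14. The differences between these readings were not tested.

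In total RNA of HEK293 cells given siRNAs against TNRC6A and TNRC6B, an experiment with its own controls (n = 2 each), genes called higher after CNOT1 siRNA had a median log2 fold change of 0.05 and genes called lower -0.08, with rho = 0.23 to the input's values across 13987 genes. BTG and TOB genes stood at 0.31 and 0.55 in its 2 knockdown libraries and immediate early genes at 0.18 and 0.35. Ribosomal protein genes stood at -0.13 and -0.04. Genes called lower by at least 1.5-fold after CNOT1 siRNA had a median of -0.15 there, and the 12 largest decreases ranged from -1.50 (STMN3) to 1.45 (UHMK1). With 2 libraries of each siRNA, every named gene tested had an edgeR FDR of 0.9999 in that experiment, the siRNA target TNRC6A (-1.80) included, so these are values only.

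In control gradients, made from the same lysates as the control input, genes that fell with CNOT1 siRNA lay less in polysomes. Their median log2 ratio of polysomal to subpolysomal CPM (0.5 CPM added, median of 4 gradients) was -0.31, and that of genes called lower by at least 1.5-fold -0.83, against 0.29 for genes called higher and -0.01 for all genes. These groups differ in make-up. Of the 1701 genes lower by at least 1.5-fold, 1039 were annotated as protein-coding, against 1526 of the 1666 higher. Antisense and LINC transcripts had median ratios of -1.13 and -0.95. The ratio among protein-coding genes alone was not examined. The CNOT1 counts of the polysomal libraries of replicate 3 go against their labels, at 27.4 CPM in the library labelled control siRNA and 590 CPM in that labelled CNOT1 siRNA (unscaled). Without that gradient the medians were -0.18 for genes called lower, -0.68 for those lower by at least 1.5-fold, 0.26 for genes called higher and 0.02 for all. Respiratory chain genes stood on the polysomal side (0.87 for complexes II to V, 0.94 without gradient 3) and ribosomal protein genes on the subpolysomal side (-1.31, -1.14 without gradient 3). Enrichment in the eIF4A1, eIF4A2 and DDX6 immunoprecipitates over total RNA had rho of 0.06, 0.04 and 0.04 with the input's log2 fold change across 15505 genes.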

How the data were processed

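RNA-Seq counts per gene symbol were deposited by the authors, 1 file per library. Per the labels and the study's methods, reads of poly(A)-selected stranded libraries were demultiplexed with bcl2fastq 2.0, aligned to hg19 with TopHat2 and counted with HTSeq. The annotation and the strand option of the counting are not given in the sources used here. Counts of the 8 input libraries (55765 symbols) were filtered with filterByExpr, scaled with TMM factors and tested with edgeR 4.0.16 (quasi-likelihood, siRNA as the only term) in R 4.3.3, with Benjamini-Hochberg adjustment over 15686 genes and a threshold of 0.05. The script was tested on simulated counts. Alternatives were DESeq2 1.42.0, other scaling factors and filters, each library left out, replicate number as a block, and 1 fit of all gradient libraries.

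Members and gene lists were chosen with earlier results of these data known. Named genes are the Ccr4-Not subunits, the 12 largest changes in each direction (called, mean of at least 10 CPM, groups not overlapping), up to 3 called genes of at least 10 CPM with the largest change in each list, and immediate early, nuclear and mitochondrially encoded genes that a sentence needs. Lists built from symbol patterns leave out annotated pseudogenes. Gene positions and coding features came from GENCODE release 44 lifted to GRCh37, and promoters from RefSeq. Deviations from the group means of same-numbered input libraries correlated at 0.173, 0.282, 0.208 and 0.191, so the numbers pair the libraries. Other libraries were fitted apart in the same way, and the immunoprecipitates' merged table of the authors' own comparisons was not used. The values of 1 gene that a list counts are not reported here.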

Additional observations from a re-analysis of the deposited data

Results flagged for a closer look

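Of 436 combinations of a named gene and an siRNA group, 17 held a library that stood apart from the other 3 by Dixon's criterion, and chance marks about 1 in 20. EGR1 stood out most in size, at 106.7 CPM in CNOT1 siRNA replicate 3 against 12.2 to 25.3 CPM in the others. CNOT1 was at 35.4 CPM in CNOT1 siRNA replicate 2 against 39.1 to 39.7 CPM. In CNOT1 siRNA replicate 2 DDN was also highest at 32.2 CPM, PAIP1 highest at 118 CPM and SNHG6 lowest at 14.9 CPM. In CNOT1 siRNA replicate 1 RPL22 was highest at 410.9 CPM and SNRPE at 131.5 CPM, and in replicate 3 AGO4 was highest at 31.4 CPM. Among control libraries, replicate 1 was highest for CNOT10 at 80.25 CPM, TOB1 at 28.7 CPM and SNRPD2 at 342 CPM. Control replicate 4 was highest for BMF at 18.45 CPM and lowest for FARSA at 120.2 CPM, KMT2B at 42.3 CPM and NR4A1 at 4.94 CPM. RARS was lowest in control replicate 3 at 117 CPM and KCNQ1OT1 in control replicate 2 at 13.2 CPM.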

How the results depend on the processing

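No gene called in both was called in the opposite direction under any alternative run, and the share of calls that were higher ranged from 46.2 to 52.3% beside 50.7%. DESeq2 called 9148 genes. With 1 library left out, 8845 to 9331 genes were called and 90.6 to 93.2% of the calls were kept. With replicate number as a block, 10407 genes were called and 9545 of the 9561 calls were kept, and among named genes DUSP1, IER2, MT-ATP6 and MT-CO2 were newly called and no call was lost. With only genes of at least 10 CPM, 9220 genes were tested, 3218 were called higher, 585 of them by at least 1.5-fold, and 747 were called lower by at least 1.5-fold. With all 24 gradient libraries in 1 fit, 2245 genes were called higher and 2614 lower, and 38 named genes lost their call. Leaving out both polysomal libraries of replicate 3, chosen after seeing the data, 6957 genes were called and 15 named genes lost their call. Values of genes that were not called changed sign with 1 library left out. IER5L ranged from -0.05 (without control replicate 4) to 0.32, MT-ATP8 from -0.27 to 0.05 (without control replicate 4), and CTGF from -0.14 (without CNOT1 siRNA replicate 1) to 0.16, with -0.04 without control replicate 3 and -0.02 without CNOT1 siRNA replicate 3. The causes were not tested.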
